A study of Homo sapiens with 16 samples.

Results

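The regions described here carried H3K27me3 in both libraries of MDA-MB-231, a breast cancer line derived from a metastatic site, and in neither library of MCF-10A, a non-tumorigenic breast epithelial line. They were chosen by merging the autosomal H3K27me3 peaks of 4 libraries, 2 replicates of MDA-MB-231 and 2 of MCF-10A, wherever their intervals shared 1 bp or more. Kept were the regions where both MDA-MB-231 replicates and neither MCF-10A replicate had a peak in it. This left 1971 of 65122 merged regions (3.03%). The study mapped 3 histone H3 marks by chromatin immunoprecipitation and sequencing (ChIP-seq), with 2 biological replicates per mark and line, and its title places it in work on DNA attached to the nuclear matrix. The labels give no treatment. MDA-MB-231 was cultured by a published protocol of its own. MCF-10A, labelled as luminal ductal cells, received a medium that contained hydrocortisone, cholera toxin, insulin and EGF, so line and medium cannot be told apart. Each line is a single line from a laboratory stock, and the p-values below measure only the spread between the 2 replicates. The values are peaks that the authors called in each library, with no read counts, so the depth is unknown. Positions are on hg19, counted from 1. Genes and sequences at these positions were not placed, since no annotation or genome of that build was used here, and the labelled cell types were therefore not checked against marker genes.

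H3K27me3 is written by Polycomb repressive complex 2 and is found on silenced genes, where it can lie on single promoters or extend over wide domains with several genes. H3K4me3 marks the promoters of active genes and of genes poised for activity. The same promoter can carry both marks, a state known from stem cells as bivalent. H3K9me2 is written mainly by the enzymes G9a and GLP and covers broad tracts of silent chromatin.

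The H3K27me3 library of MDA-MB-231 replicate 1 stood apart from the others. It held 8408 autosomal peaks over 6.50 Mb, against 30238 peaks over 19.5 Mb in MDA-MB-231 replicate 2, and 28393 and 28371 peaks over 21.2 and 21.0 Mb in MCF-10A. A score of 100 or higher was reached by 8.46% of its peaks, and by 23.4% to 26.3% of the peaks in each of the other lists. The score is the authors' own value per peak, and its scale is not given. Every member had to be in this short list. With MDA-MB-231 replicate 2 alone the rule kept 20914 regions, and with replicate 1 alone it kept 5441. The other marks had 15642 to 16008 H3K4me3 and 4980 to 6086 H3K9me2 peaks in MDA-MB-231, against 15015 to 16174 and 8701 to 10418 peaks in MCF-10A.

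The regions were narrow and of moderate strength. Their median width was 1039 bp, with an interquartile range of 839 to 1312 bp, and together they covered 2.28 Mb. Of the peaks in the MDA-MB-231 lists, 24.1% of replicate 1 and 7.30% of replicate 2 lay in members. The median score of the strongest peak in a region was 69.1 in replicate 1 and 88.2 in replicate 2, where all peaks of these lists had medians of 66.6 and 73.3. The weakest peaks that still counted had scores of 50.4 and 50.1 in replicates 1 and 2, close to the lowest score of every list. The peaks of replicates 1 and 2 covered a median of 75.8% and 74.9% of a region. These values chose the members and carry no test.

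Of 3904 regions in both MDA-MB-231 replicates, 1971 (50.5%) had no MCF-10A peak, 762 (19.5%) had a peak in 1 MCF-10A replicate, and 1171 had peaks in all 4 libraries. Of the 762 that missed the rule by 1 MCF-10A library, 436 had the peak in MCF-10A replicate 1 and 326 in replicate 2, and that peak covered a median of 55.2% of the region. The MDA-MB-231 regions lay a median of 6.94 kb from the nearest MCF-10A H3K27me3 peak, with an interquartile range of 1.74 to 26.3 kb. An MCF-10A peak lay within 1 kb of 348 of them (17.7%), and 206 had none within 100 kb.

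The regions were spread unevenly over the chromosomes. Chromosome 20 held 303 of them, which was 7.28% of the H3K27me3 regions on that chromosome and 15.4% of all members. Chromosome 11 held 264 (5.08%), chromosome 14 held 90 (4.32%) and chromosome 6 held 138 (4.11%). At the other end were chromosome 16 with 8 of 2617 regions (0.306%), chromosome 8 with 30 of 4327 (0.693%) and chromosome 13 with 6 of 795 (0.755%). The overall share was 3.03%, and 8 of 22 autosomes lay above it, from chromosome 1 at 3.07% up to chromosome 20. The regions found only in MCF-10A ran the other way, with 4.30% of the regions on chromosome 20, 23.02% on chromosome 8 and 21.1% on chromosome 16.

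**Figure D1:**
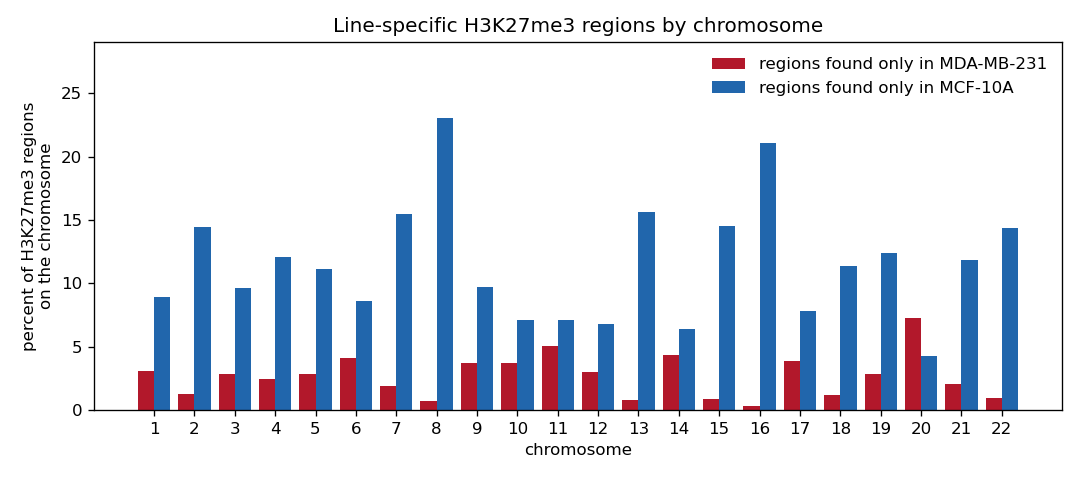
Share of the merged H3K27me3 regions of each autosome (x axis) that were found only in MDA-MB-231 (red) or only in MCF-10A (blue), in percent of all regions on that chromosome (y axis). On chromosome 20 the MDA-MB-231 share, 7.28%, exceeded the MCF-10A share, 4.30%, while on chromosomes 8 and 16 the MDA-MB-231 shares were 0.693% and 0.306%.

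The other repressive mark followed the same chromosomes, and H3K4me3 much less. Chromosome 20 took 12.9% and 11.98% of the bases covered by H3K27me3 in the MDA-MB-231 libraries, against 4.48% and 4.49% in MCF-10A. For H3K9me2 it took 13.0% and 12.1% in MDA-MB-231, against 1.88% and 1.73% in MCF-10A. For H3K4me3 it took 2.79% and 2.80% in MDA-MB-231, against 2.51% and 2.53% in MCF-10A. On chromosome 16 the order was turned, with 1.30% and 1.13% of the H3K27me3 bases in MDA-MB-231 against 6.36% and 6.28% in MCF-10A. H3K9me2 there stood at 0.32% and 0.53% in MDA-MB-231 against 6.47% and 6.74% in MCF-10A. H3K4me3 on chromosome 16 stood at 4.10% and 4.14% in MDA-MB-231 against 4.92% and 4.87% in MCF-10A. The gap between the lines was smallest for H3K4me3 on both chromosomes. These chromosomes had the highest and the lowest share of members, and such gaps were not counted over the other autosomes. The H3K27me3 values come from the lists that chose the members and carry no test. The input libraries were not analysed here, so the number of DNA copies of a chromosome and the amount of the mark on it cannot be told apart.

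Most of the regions lay near another of their kind. Joining members with gaps of at most 100 kb gave 358 clusters that held 1517 of the 1971 regions (77.0%), and 454 regions stood alone. This share was not counted for the other classes or for all H3K27me3 regions. There were 27 clusters of 10 or more members, on 10 chromosomes, with 420 members (21.3%), and 10 of these clusters lay on chromosome 20. Going along the genome, the next H3K27me3 region after a member was again a member in 211 of 1971 cases (10.7%), where members made up 3.03% of all regions, a ratio of 3.54. Without chromosome 20 the values were 10.3% and 2.74%, a ratio of 3.75. The same ratio was 4.75 for the regions in all 4 libraries and 2.06 for those found only in MCF-10A, so neighbours of the same class were not particular to the MDA-MB-231 regions. The peaks of MDA-MB-231 replicate 2 alone put 95.9% of its regions in clusters, and those of replicate 1 alone 82.8%. These sets were larger, with 20914 and 5441 regions, and the part of the number of regions in these shares was not tested.

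The 27 larger clusters together spanned 8.28 Mb and were covered in patches. Peaks of H3K27me3 covered 9.30% and 25.7% of the span in MDA-MB-231, against 5.63% and 5.39% in MCF-10A. Besides their 420 members these spans held 1431 regions seen in MDA-MB-231 replicate 2 alone. The H3K27me3 values of these spans, here and in the single clusters that follow, come from the lists that chose the members and carry no test. H3K9me2 peaks, which the rule did not use, covered 14.3% and 9.18% of the spans in MDA-MB-231, against 1.83% and 1.20% in MCF-10A. The difference in H3K9me2 cover was larger than the spread between replicates, although the smallest p that 2 against 2 libraries allow is 0.333.

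The largest cluster held 32 members in 315 kb of chromosome 20, at chr20:46304861-46619616. Its cover by H3K27me3 was 14.2% and 34.2% in MDA-MB-231, against 1.1% and 1.4% in MCF-10A. H3K9me2 covered 15.2% and 8.7% in MDA-MB-231, and none of it in either MCF-10A library. Only 7 of the 119 H3K27me3 regions in the cluster had an MCF-10A peak. A single H3K4me3 region lay inside, at chr20:46412995-46415506, with no peak in either MDA-MB-231 library and 2245 and 2512 covered bp in MCF-10A replicates 1 and 2 (limma adjusted p = 0.0013). Only regions with a peak in at least 2 libraries were tested, so this region entered through MCF-10A alone and had to differ. No member overlapped it, and members lay on both sides of it.

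**Figure D2:**
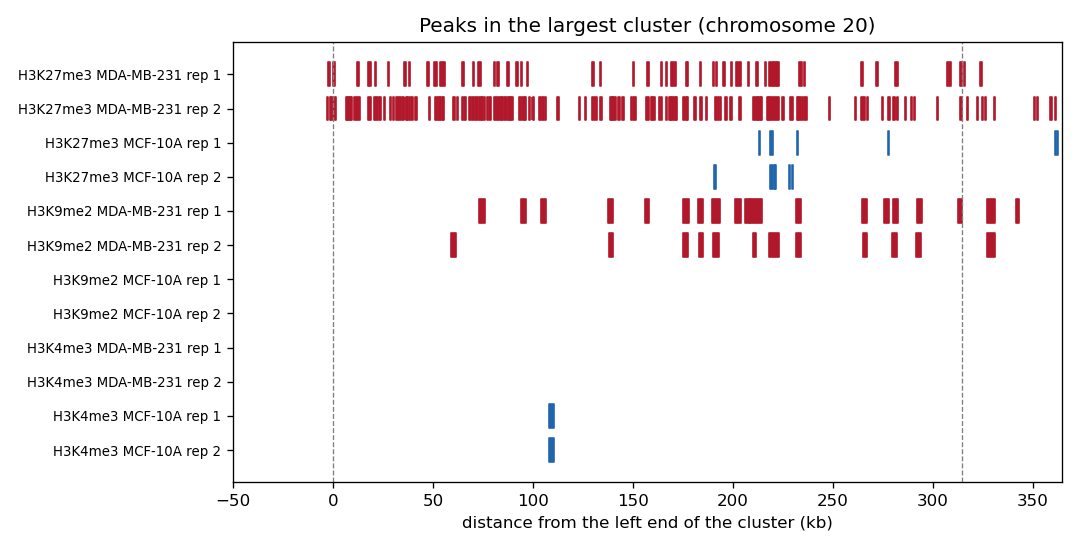
Peaks of all 12 libraries (rows, MDA-MB-231 in red and MCF-10A in blue) in the largest cluster, by distance from its left end in kb, with dashed lines at its ends. MDA-MB-231 has H3K27me3 peaks from end to end, with gaps, and H3K9me2 peaks from 59.2 kb on in replicate 2 and from 73.2 kb on in replicate 1, while MCF-10A has 7 H3K27me3 regions and no H3K9me2 peak there, and the single H3K4me3 region is present in MCF-10A only.

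The next 4 clusters by number of members showed the same order for H3K9me2. A cluster of 27 members lay at chr10:72694113-73439141, where H3K27me3 covered 8.0% and 23.7% in MDA-MB-231 against 7.9% and 6.6% in MCF-10A, and H3K9me2 covered 7.3% and 4.3% in MDA-MB-231 against 2.1% and 1.3% in MCF-10A. In this cluster MDA-MB-231 replicate 1 came close to MCF-10A in H3K27me3 cover, and 99 of its 276 regions had an MCF-10A peak. A cluster of 25 members at chr6:40451831-40846145 had the most H3K9me2, 48.2% and 24.4% in MDA-MB-231 against 2.2% and 1.1% in MCF-10A, and no H3K4me3 peak in any library. A second cluster on the same chromosome, at chr6:33693974-34060102, held 24 members, with H3K9me2 over 13.6% and 9.5% in MDA-MB-231 against 1.8% and 1.7% in MCF-10A. The fifth, at chr11:125024067-125330691, also held 24 members, with H3K9me2 over 12.5% and 6.4% in MDA-MB-231 against 0.3% and 0.6% in MCF-10A.

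**Figure D3:**
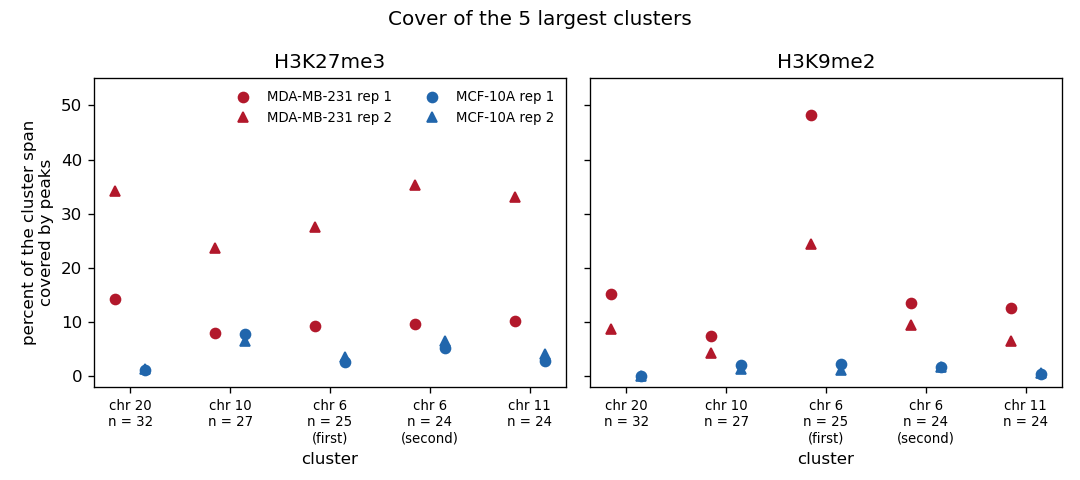
Percent of the span of the 5 largest clusters (x axis, with the number of members) covered by H3K27me3 peaks (left) and H3K9me2 peaks (right) in each library, MDA-MB-231 in red and MCF-10A in blue, circles for replicate 1 and triangles for replicate 2. For H3K9me2 both MDA-MB-231 libraries lie above both MCF-10A libraries in each cluster, whereas for H3K27me3 MDA-MB-231 replicate 1 comes close to MCF-10A in the chromosome 10 cluster.

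Few H3K4me3 regions lay in these 5 clusters, and those that differed were weaker in MDA-MB-231. Of 7 that were tested, 4 were lower in MDA-MB-231 and none was higher by limma with Benjamini-Hochberg adjustment over all H3K4me3 regions (none was higher at an unadjusted p under 0.05 either). In 3 of the 4 neither MDA-MB-231 library had a peak, so these passed the filter of a peak in at least 2 libraries through MCF-10A alone and had to differ. On chromosome 10 the region at chr10:72972065-72974100 had 700 and 893 covered bp in MDA-MB-231 against 1965 and 1811 bp in MCF-10A (log2 ratio −1.16 on covered bp plus 100, SE 0.15, limma adjusted p = 0.014). A neighbour at chr10:72976982-72977720 had no peak in MDA-MB-231 and 616 and 739 bp in MCF-10A (limma adjusted p = 0.00138). On chromosome 11 the region at chr11:125034736-125035676 had none in MDA-MB-231 and 509 and 941 bp in MCF-10A (limma adjusted p = 0.00792). Over the spans of all 358 clusters, 56 of 165 tested H3K4me3 regions (33.9%) were lower in MDA-MB-231 and 14 (8.48%) were higher. No MDA-MB-231 peak was present in 43 of the 56, and no MCF-10A peak in 13 of the 14, so these calls too follow from the filter and the counts are a description. Among all 15212 H3K4me3 regions tested, 8.49% were lower in MDA-MB-231 and 9.93% were higher.

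H3K4me3 lay on few of the regions, and less often in MDA-MB-231 than in MCF-10A. Peaks of H3K4me3 touched 38 and 39 of the 1971 regions in MDA-MB-231 replicates 1 and 2 (1.95 ± 0.0359%, SD, n = 2), against 75 and 77 in MCF-10A (3.86 ± 0.0718%, SD, n = 2). Both replicates of MCF-10A carried the mark on 74 regions (3.75%, exact 95% Clopper-Pearson interval 2.96 to 4.69%). Both MDA-MB-231 replicates carried it on 29 (1.47%, 0.988 to 2.11%). The line difference of −1.90 percentage points exceeded the spread between replicates, and the two-sided exact permutation test gave p = 0.333, the smallest possible here. Among all H3K27me3 regions the order was not the same, with 1.70 ± 0.0521% in MDA-MB-231 and 1.38 ± 0.282% in MCF-10A (SD, n = 2). Without MDA-MB-231 replicate 1 of H3K27me3, the shares in both replicates of a line were 0.440% in MDA-MB-231 and 1.09% in MCF-10A. Without replicate 2 they were 0.717% in MDA-MB-231 and 1.73% in MCF-10A. The regions found only in MCF-10A showed the mirror image, with H3K4me3 on 6.05 ± 0.117% in MDA-MB-231 and 3.52 ± 0.837% in MCF-10A (SD, n = 2). Regions with H3K27me3 in 1 MCF-10A replicate besides both of MDA-MB-231 had the order of the members. H3K4me3 was there on 0.525% in each MDA-MB-231 library, and on 0.656% and 1.31% in MCF-10A. Regions in all 4 libraries had the other order, at 5.12 ± 0.362% in MDA-MB-231 and 3.42 ± 0.966% in MCF-10A (SD, n = 2). The intervals take regions as independent and cover counting error only.

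**Figure D4:**
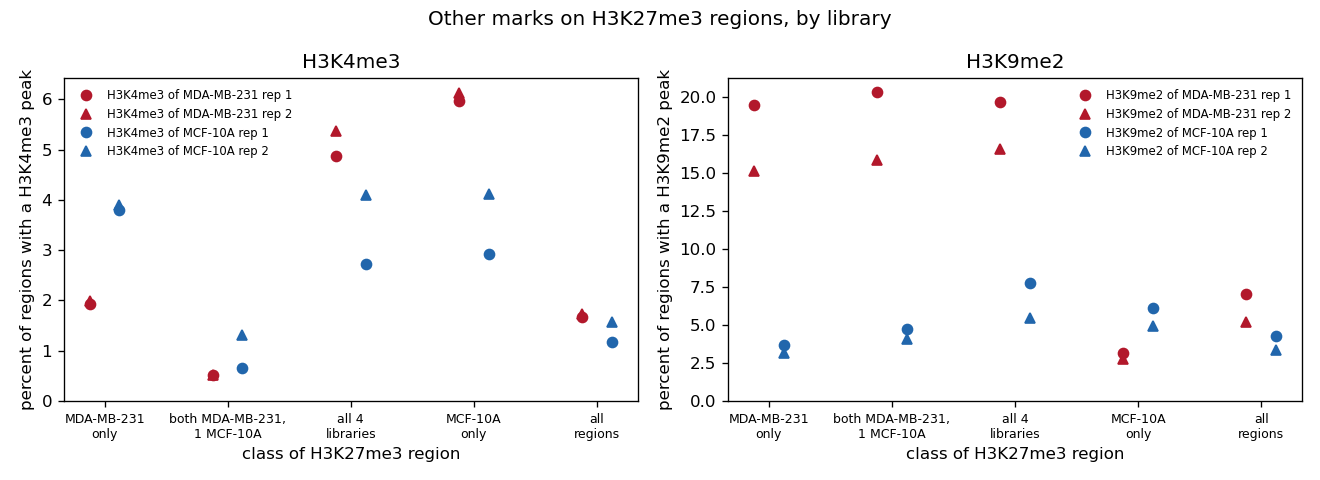
Percent of H3K27me3 regions of each class (x axis) that overlap a peak of H3K4me3 (left) or H3K9me2 (right), per library, with MDA-MB-231 in red and MCF-10A in blue, circles for replicate 1 and triangles for replicate 2. In the regions found only in MDA-MB-231 H3K4me3 was at 1.93% and 1.98% in MDA-MB-231 and at 3.81% and 3.91% in MCF-10A, while H3K9me2 was at 19.5% and 15.1% in MDA-MB-231 and at 3.65% and 3.15% in MCF-10A.

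The 74 regions with H3K4me3 in both MCF-10A replicates fell into 3 states in MDA-MB-231. In 33 of them neither MDA-MB-231 replicate had an H3K4me3 peak on the region, in 15 only 1 replicate had it, and in 26 both had it. The opposite state, H3K4me3 in both MDA-MB-231 replicates and neither MCF-10A replicate, was seen on 3 regions. Of all H3K27me3 regions 254 (0.390%) were in the state of the 33 regions, which made up 1.67% of the members, and 409 (0.628%) were in the opposite state, against 0.152% of the members. Where H3K4me3 was present in all 4 libraries it still covered less of the region in MDA-MB-231, at medians of 31.4% and 41.4% in MDA-MB-231 and 97.9% and 100% in MCF-10A. In 18 of these 26 regions both MDA-MB-231 libraries had less cover than either MCF-10A library, and in 1 region both had more. Of all H3K27me3 regions 407 had H3K4me3 in all 4 libraries. Their cover was not compared, so the count of 18 has no background and is a description.

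**Figure D5:**
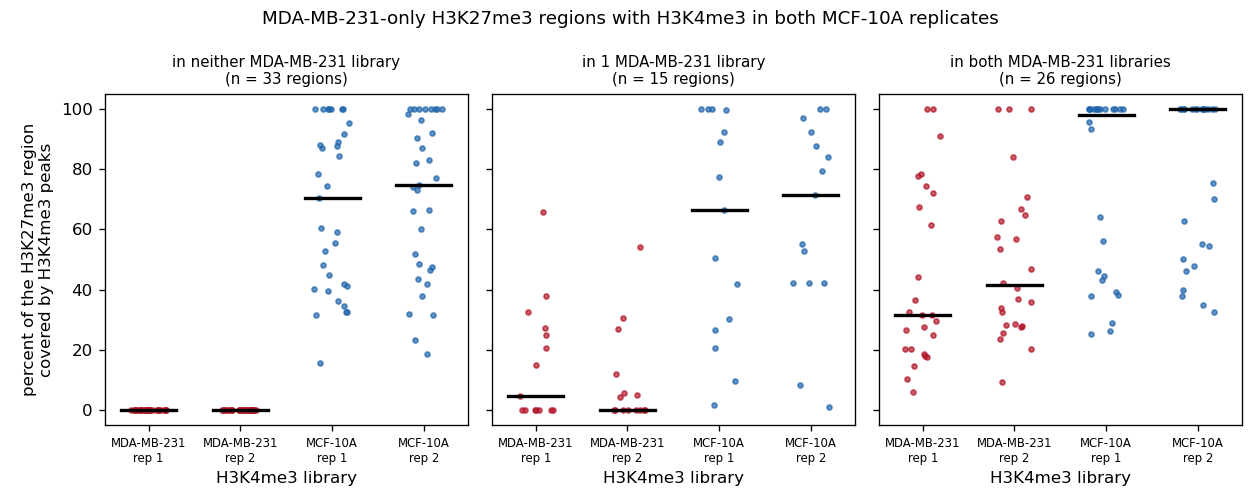
Percent of each MDA-MB-231-only H3K27me3 region covered by H3K4me3 peaks (y axis) in the 4 H3K4me3 libraries (x axis), for the 74 regions with H3K4me3 in both MCF-10A replicates, split by the number of MDA-MB-231 replicates with the mark. Points are regions and black bars are medians; the zeros in the left panel are fixed by the split, and in the right panel the MDA-MB-231 medians are 31.4% and 41.4% against 97.9% and 100% in MCF-10A.

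Measured over whole H3K4me3 regions, which can reach beyond the H3K27me3 region, 79 were overlapped by a member and 77 passed the filter of a peak in at least 2 of the 4 libraries. Of these, 43 (55.8%) were lower in MDA-MB-231 and 5 (6.49%) were higher, by limma on log2 of covered bp plus 100 with adjustment over all 15212 regions tested. The background was 8.49% lower and 9.93% higher in MDA-MB-231. In 26 of the 43 neither MDA-MB-231 library had a peak, so these passed the filter through MCF-10A alone and had to differ. The other 17 had a peak in all 4 libraries, and in each of them both MDA-MB-231 libraries covered fewer bp than both MCF-10A libraries. That order is nearly implied by a call on the same covered bp and adds no test. All 5 higher regions had no MCF-10A peak. The number of lower regions was 13 when MCF-10A replicate 1 of H3K4me3 was left out and 17 when its replicate 2 was. The number of higher regions was 3 with that MCF-10A replicate 1 left out, and 0 when either MDA-MB-231 replicate of H3K4me3 was left out. Regions with peaks in 1 line alone cannot be tested once a library of that line is left out, so the filter fixes much of these drops. Of the 997 H3K4me3 regions present only in MCF-10A, 26 (2.61%) were overlapped by a member. Of the 1085 present only in MDA-MB-231 it was 5 (0.461%), and of the 11967 in all 4 libraries 35 (0.292%).

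The 33 regions where H3K4me3 of MCF-10A met H3K27me3 of MDA-MB-231 were scattered, on 15 chromosomes, and 13 of them stood alone. Of these 33 regions 2 lay on chromosome 20 and 1 in a cluster of 10 or more members. The 32 H3K4me3 regions they overlapped had 433 to 3959 covered bp in the MCF-10A libraries (median 1538 bp). In MDA-MB-231 26 of the 32 had no peak at all. Since the 33 were chosen for H3K4me3 in MCF-10A alone, the choice fixed the direction, and the limma p-values of their H3K4me3 regions serve only to rank them. The H3K4me3 peaks of MCF-10A replicates 1 and 2 covered a median of 70.5% and 74.7% of the H3K27me3 region, and 19 of the 33 were covered by 50% or more in both. Leaving out MDA-MB-231 replicate 1 of H3K27me3 turned the count of 33 into 129. H3K9me2 was present in any library on 2 of the 33, against 24.9% of all members and 11.6% of all H3K27me3 regions.

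The region with the smallest p lay at chr2:14773042-14774952. The H3K4me3 region over it, chr2:14772130-14775788, had no peak in MDA-MB-231 and 3486 and 3654 covered bp in MCF-10A, and H3K27me3 of MDA-MB-231 replicates 1 and 2 lay over 14.6% and 37.7% of it. It was the widest of the named H3K4me3 regions, and H3K27me3 lay over the smaller part of it. On chromosome 6, 2 neighbouring members, chr6:39195055-39195934 and chr6:39196009-39197600, lay under the same H3K4me3 region, which had no peak in MDA-MB-231 and 2577 and 2895 bp in MCF-10A. H3K27me3 peaks covered 62.3% and 67.8% of that H3K4me3 region in MDA-MB-231.

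At chr14:70345552-70347385 H3K27me3 reached over nearly all of the H3K4me3 region in replicate 2. Its H3K4me3 region had no peak in MDA-MB-231 and 1665 and 1716 bp in MCF-10A, and MDA-MB-231 H3K27me3 lay over 54.6% and 99.9% of that region. At chr20:43881253-43883228 the values were no H3K4me3 peak in MDA-MB-231 and 1738 and 1905 bp in MCF-10A, with H3K27me3 over 67.7% and 93.7%. This region also lay wholly under an H3K9me2 peak of MDA-MB-231 replicate 1, and had none in replicate 2 or in MCF-10A.

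At chr11:130029049-130030649 the H3K4me3 region had no peak in MDA-MB-231 and 2008 and 1896 bp in MCF-10A, with MDA-MB-231 H3K27me3 over 30.5% and 53.7% of the H3K4me3 region. At chr1:27285751-27287241 there was no peak in MDA-MB-231 and 1624 and 1567 bp in MCF-10A, with MDA-MB-231 H3K27me3 over 39.8% and 80.7%. The 3 remaining regions of the first 10 were chr7:142552916-142554212, chr17:39780238-39781014 and chr7:22395703-22396832. Their H3K4me3 regions had no peak in MDA-MB-231 and 1318 to 1549 bp in the MCF-10A libraries. At the first of these the marks met only at an edge, since MCF-10A H3K4me3 covered 36.3% and 31.4% of the member and the H3K27me3 peak of MDA-MB-231 replicate 1 did not reach the H3K4me3 region.

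The 3 regions in the opposite state, with H3K4me3 in MDA-MB-231 only, had peaks of both marks in MDA-MB-231 at the same place. The one at chr2:100938420-100939214 had an H3K4me3 region of 669 and 952 bp in MDA-MB-231 and none in MCF-10A. That at chr14:38052551-38053894 had 651 and 513 bp in MDA-MB-231 and none in MCF-10A, and that at chr14:103395387-103396485 had 1044 and 811 bp in MDA-MB-231 and none in MCF-10A. They were chosen after their values were seen, so no test is given.

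H3K9me2 lay on more of the regions than H3K4me3 did, and mostly in MDA-MB-231. It touched 384 and 298 regions in MDA-MB-231 replicates 1 and 2 (17.3 ± 3.09%, SD, n = 2), against 72 and 62 regions in MCF-10A (3.40 ± 0.359%, SD, n = 2). The difference of 13.9 percentage points exceeded the spread between replicates (two-sided exact permutation test, p = 0.333, the smallest possible), although the MDA-MB-231 lists of H3K9me2 held fewer peaks. Both MDA-MB-231 replicates carried it on 216 regions (10.96%, exact 95% interval 9.61 to 12.4%), and both MCF-10A replicates on 42 (2.13%, 1.54 to 2.87%). Without MDA-MB-231 replicate 1 or 2 of H3K27me3 the MDA-MB-231 share was 5.36% or 6.58%. The MDA-MB-231 share was similar in the other classes with H3K27me3 in both MDA-MB-231 replicates, while the MCF-10A share was higher there, at 7.77% and 5.47% in the regions in all 4 libraries. Regions with H3K27me3 in all 4 libraries carried H3K9me2 at 18.1 ± 2.17% in MDA-MB-231 and 6.62 ± 1.63% in MCF-10A, and those with 1 MCF-10A replicate at 18.1 ± 3.16% and 4.40 ± 0.464% (SD, n = 2). The regions found only in MCF-10A had 2.94 ± 0.282% in MDA-MB-231 and 5.53 ± 0.856% in MCF-10A (SD, n = 2). Among all H3K27me3 regions the order was that of the members, with a smaller difference of 2.32 percentage points. H3K9me2 was there on 6.13 ± 1.30% in MDA-MB-231 and 3.81 ± 0.629% in MCF-10A (SD, n = 2).

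On 168 of the regions H3K9me2 was present in both MDA-MB-231 replicates and in neither MCF-10A replicate, and on 8 regions the reverse held. These were 8.52% and 0.406% of the members, where all H3K27me3 regions had 2.34% and 1.20%. The first share was 8.27% in the regions with H3K27me3 in 1 MCF-10A replicate besides both of MDA-MB-231, and 8.20% in the regions in all 4 libraries. These 168 regions lay on 19 chromosomes, 36 of them on chromosome 20 and 53 in clusters of 10 or more members. H3K9me2 peaks were wider than the H3K27me3 regions and covered a median of 100% of them in both MDA-MB-231 replicates, with 79 regions wholly covered in both. Of the 458 H3K9me2 regions that a member overlapped, 253 had a peak in at least 2 libraries. In limma 170 of these 253 (67.2%) were higher in MDA-MB-231 and 11 (4.35%) lower, where 20.2% of all 8576 H3K9me2 regions tested were higher and 49.2% lower. Of the 170, 159 had no MCF-10A peak, so their calls follow closely from passing the filter. Such regions have a peak in 1 library once an MDA-MB-231 library is left out, and then cannot be tested. Most of the drop in the next counts is therefore fixed by the filter. Leaving out MDA-MB-231 replicate 1 of H3K9me2 left 8 higher regions and leaving out its replicate 2 left 12, while there were 42 when H3K9me2 peaks needed a score of 100. The lower regions numbered 1 when either MCF-10A replicate of H3K9me2 was left out.

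The 10 strongest members were ranked by the lower of their score percentiles in the 2 MDA-MB-231 lists. None of the 10 had both H3K9me2 and H3K4me3, but few of them had H3K4me3 at all. Of the 84 members with H3K4me3 in any library, 7 also had H3K9me2 in some library. On chromosome 19, 4 of the 10 lay together, at chr19:8851364-8856555, chr19:8864161-8878839, chr19:8879671-8884513 and chr19:8893741-8897584. They had H3K9me2 in 1 or both MDA-MB-231 libraries and no H3K4me3 in any library. The first of them had an H3K9me2 region with 5018 and 4831 covered bp in MDA-MB-231 and none in MCF-10A (limma adjusted p = 0.000112), and the last had 6873 and 5305 bp and none (limma adjusted p = 0.000364). The member at chr7:150593006-150595236 carried H3K9me2 in the same way, with 1925 and 1631 bp in MDA-MB-231 and none in MCF-10A (limma adjusted p = 0.000158). The H3K9me2 regions given a p-value here passed the filter of a peak in at least 2 libraries through MDA-MB-231 alone. They had to differ, so these p-values are a description. The members at chr14:104582522-104585122 and chr1:201366874-201369215 had no H3K9me2, and H3K4me3 of MCF-10A covered 40.2% and 31.8% of the first and 59.2% and 66.4% of the second. The member at chr14:38060346-38062718 had neither mark in any library, although its H3K27me3 cover in MDA-MB-231 was 90.9% and 79.4%. The remaining 2 were chr1:153368124-153370260, where MDA-MB-231 replicate 1 alone had H3K9me2, over 76.4% of its length, and chr20:46355412-46358284 in the largest cluster, with neither mark.

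The marks were not spread evenly between single and clustered regions. Among the 454 single regions 32 (7.05%) had H3K4me3 in both MCF-10A replicates, among the 1097 in clusters of 2 to 9 there were 40 (3.65%), and among the 420 in larger clusters 2 (0.476%). H3K9me2 in both MDA-MB-231 replicates ran the other way, on 34 single regions (7.49%), 123 in clusters of 2 to 9 (11.2%) and 59 in larger clusters (14.0%). Both shares were higher in stronger regions. Of the 1200 regions whose lower score percentile was under 50, 2.00% had H3K4me3 in both MCF-10A replicates and 8.92% H3K9me2 in both MDA-MB-231 replicates. Of the 671 regions from the 50th to the 90th percentile these shares were 5.51% and 12.8%, and of the 100 regions above that, 13 and 23 had these marks. Median widths were 954.5, 1132 and 1932.5 bp in these groups, and the part of width in these shares was not tested.

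Most of the regions carried neither of the other marks. No H3K4me3 or H3K9me2 peak of any library touched 1404 of the 1971 (71.2%), and 7 regions met both marks in some library. Neither count was made over all H3K27me3 regions. Each mark taken alone was more frequent on the members than on all regions. In any library H3K4me3 was on 4.26% of the members and 2.55% of all regions, and H3K9me2 on 24.9% and 11.6%. By these shares the members were without both marks less often than all regions were. Members were also wider, with a median of 1039 bp against 632 bp in all regions. Of the 74 regions with H3K4me3 in both MCF-10A replicates, 2 had H3K9me2 in both MDA-MB-231 replicates. The share with H3K9me2 in both MDA-MB-231 replicates was 10.96% of all members and 3.57% of all H3K27me3 regions. The regions lay a median of 71.1 kb from the nearest H3K4me3 peak of MDA-MB-231 and 65.0 kb from that of MCF-10A, where all H3K27me3 regions had medians of 81.7 kb and 81.9 kb.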

How the data were processed

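ChIP-seq peak lists of 12 libraries were used, and the 4 inputs were not analysed here. Each deposited list gives a chromosome, start, end, peak name and score per peak. This score comes from the authors, on a scale not given in the sources used here, and served to rank peaks inside their own list and to set thresholds. Per the submitters' processing notes CASAVA 1.6, Bowtie2, MACS 1.4, bedtools and hg19 were used, with roles and settings not given. Per the labels' protocols replicates were combined for further work, but these lists are per replicate. Peaks outside chromosomes 1 to 22, 1.00% to 3.97% of a list, were left out.

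The labels gave each library its mark and line. The members and lists were chosen with earlier results of these data known. Peaks were merged at an overlap of 1 bp. Clusters were chains of members with gaps of at most 100 kb. For H3K4me3 and H3K9me2, the covered bp of every merged region of that mark with a peak in at least 2 of 4 libraries was tested as log2(bp + 100) with limma 3.58.1 (trend, empirical Bayes; R 4.3.3) and Benjamini-Hochberg adjustment, threshold 0.05. The scale understates changes of narrow regions, and no ratio is given against a line without a peak. Shares were compared by exact permutation over libraries. The limma step was tested on simulated data in which every library had some cover. It therefore did not check the calls of regions without a peak in 1 line. Named were the 10 members with the highest lower score percentile, the 10 members with H3K4me3 in both MCF-10A and neither MDA-MB-231 replicate with the smallest p, and the 5 clusters with most members. Python 3.11.15, NumPy 2.4.6, pandas 2.3.3, SciPy 1.17.1 and matplotlib 3.10.9 were used.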

Additional observations from a re-analysis of the deposited data

Results flagged for a closer look

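Chromosome X was outside the comparisons. By the same rule 11 of its 1164 merged H3K27me3 regions (0.945%) were found in both MDA-MB-231 replicates and in neither MCF-10A replicate. The share over the autosomes was 3.03%, so chromosome X lay below it. These regions were not used in the report, and no test of them was made.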

How the results depend on the processing

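The number of regions rested on the lists. Against 1971 regions, a score of at least 100 left 202 and a peak in either MDA-MB-231 replicate gave 23788. Leaving out each H3K27me3 library in turn gave 2312 to 20914. The share in clusters, 77.0%, was 67.6% with gaps of 50 kb, 85.0% with 250 kb, 39.1% with a score of at least 100, 69.6% with gaps of up to 1000 bp merged and 74.5% without chromosome 20, and 80.2% to 95.9% with an H3K27me3 library left out.

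The share with H3K4me3 in both MCF-10A replicates, 3.75%, was 2.28% where peaks had to cover 50% of a region, 7.92% with an H3K27me3 score of at least 100, and 1.09% to 3.91% with a library left out. That in MDA-MB-231, 1.47%, was 0.507% and 3.47% under these 2 settings, 2.49% within 1000 bp, 2.44% in either replicate, and 0.440% to 1.98% with a library left out. For H3K9me2 the MCF-10A share of 2.13% was 3.15% within 1000 bp, 4.67% in either replicate, 0.152% with an H3K9me2 score of at least 100, 2.97% with that H3K27me3 score, and 1.71% to 3.65% with a library left out. The MDA-MB-231 share of 10.96% was 14.5%, 23.6%, 2.38% and 19.8% under these 4 settings, and 5.36% to 19.5% with a library left out. The signs of both line differences stayed the same in all settings tried, at −3.22 to −0.636 points for H3K4me3 and 4.16 to 24.8 points for H3K9me2.

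The count of 33 regions with H3K4me3 in MCF-10A alone was 6 with an H3K27me3 score of at least 100, and 34 to 129 with an H3K27me3 library left out; these alternatives were added after seeing the data, as was leaving out chromosome 20. H3K4me3 regions on members lower in MDA-MB-231 numbered 13 to 46 with a library left out, and those higher 0 to 5, or 3 with a score of at least 100. H3K9me2 regions on members lower in MDA-MB-231 numbered 1 to 15 with a library left out and 1 with that score, and those higher 8 to 159, or 42 with that score. Where a library was left out, the lone one of that line was assumed to vary like the other line. Regions with peaks in that line alone then fell below the filter of 2 libraries. The lower counts therefore follow in large part from the filter. The 10 regions named for H3K4me3 in MCF-10A alone could not be fitted without an MCF-10A replicate of H3K4me3, since they then have a peak in 1 library. The replicate numbers are not stated to pair libraries (the correlation of same-numbered libraries' deviations from their line's mean was 0.17 for H3K4me3 and 0.039 for H3K9me2), and with the replicate number as a block the counts of lower and higher regions were 40 and 5 for H3K4me3 and 11 and 165 for H3K9me2. The causes were not tested. The gene alternatives were not run, since no annotation of hg19 was used. With 2 libraries per group and no read counts, precision is limited by the number of libraries.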
